A study of Mus musculus with 21 samples.

Results

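The response of kidney-resident macrophages (KRM) to renal artery stenosis (RAS) was set against that of CD11cloMϕ, the monocyte-derived macrophages with little or no CD11c. For each gene, the change from Sham to RAS in CD11cloMϕ was subtracted from the change in KRM. This difference of 2 changes is called the interaction, and it lies above 0 where a gene rose more, or fell less, in KRM. It was computed from 14 of the 21 libraries, and 13877 of 34236 gene symbols had enough counts to be tested. The genes that started lower in KRM Sham and approached CD11cloMϕ in RAS were then separated from genes of other kidney cells.

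The groups were KRM from Sham (4 libraries) and RAS kidneys (3), and CD11cloMϕ from Sham (3) and RAS kidneys (4), all from male C57BL/6J mice labelled as 24 weeks old, with no transgene. RAS was made with a cuff on the right renal artery, and in Sham the artery was freed without a cuff. Kidneys were digested, T, B and NK cells, granulocytes and erythrocytes were gated out, and CD45+ F4/80+ CD64+ macrophages were sorted as KRM (intermediate CD11b and CD11c) or CD11cloMϕ (high CD11b, low to negative CD11c) within 5 h. The study counts mice for each Sham subset in the same numbers as the libraries here, but gives n = 3 for CD11cloMϕ from RAS kidneys, where 4 libraries are used here. No source used ties a library to a mouse, so p-values measure the spread between libraries, which may be technical. Libraries are named by their replicate number.

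KRM are long-lived, renew themselves in place and are supplied only in small part by blood monocytes. CD11cloMϕ carry Ly6C and are replaced from circulating classical monocytes. A narrowed renal artery leaves the kidney with less flow, and loss of capillaries, tubular injury and fibrosis follow. A gene that is made by 1 subset in the healthy kidney and by both in the stenotic one would show a gap in Sham that closes in RAS.

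Counts per library ranged from 8573928 to 18592381, with 14607 to 17703 genes counted. Levels are in CPM, the counts of a gene per library scaled to a common library size by TMM. The subset labels held in Sham: Cadm1, an adhesion molecule, was at 608 to 693 CPM in KRM and 7.04 to 9.44 in CD11cloMϕ, and Ly6c2, a marker of classical monocytes, was at 5.96 to 9.03 and 537 to 1018. In RAS the libraries stood further apart. In KRM RAS 2 and 3 the summed level of 9 collecting duct principal cell genes was 1674 and 1257 CPM, against 30.7 in KRM RAS 1 and 12.4 to 14.9 in KRM Sham. KRM RAS 1 held more of a T and NK cell list of 12 genes (542 CPM, with 81.3 and 82.5 in KRM RAS 2 and 3 and 80.2 to 112 in KRM Sham). In KRM Sham that sum was mostly Cd4, with 4610 counts, where the next highest member, Il7r, had 41. The T cell gene Cd3e was at 40.9, 6.33 and 5.31 CPM in KRM RAS and 0.315 to 0.928 in KRM Sham. KRM RAS 1 also stood apart in the B and plasma cell sum (3174 CPM, with 538 and 546 in KRM RAS 2 and 3 and 1277 to 1661 in KRM Sham) and the erythroid sum (793, with 303 and 266). In CD11clo Sham 3 the 22 proximal tubule genes summed to 11297 CPM, and in the other CD11clo Sham libraries to 1053 and 942. CD11clo RAS 3 held Cadm1 at 205 CPM, where the other 3 held 10.3 to 48.4, and the lowest classical monocyte sum (3798 CPM). In sorted bulk samples, fewer cells of a type and less RNA per cell cannot be told apart.

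**Figure D1:**
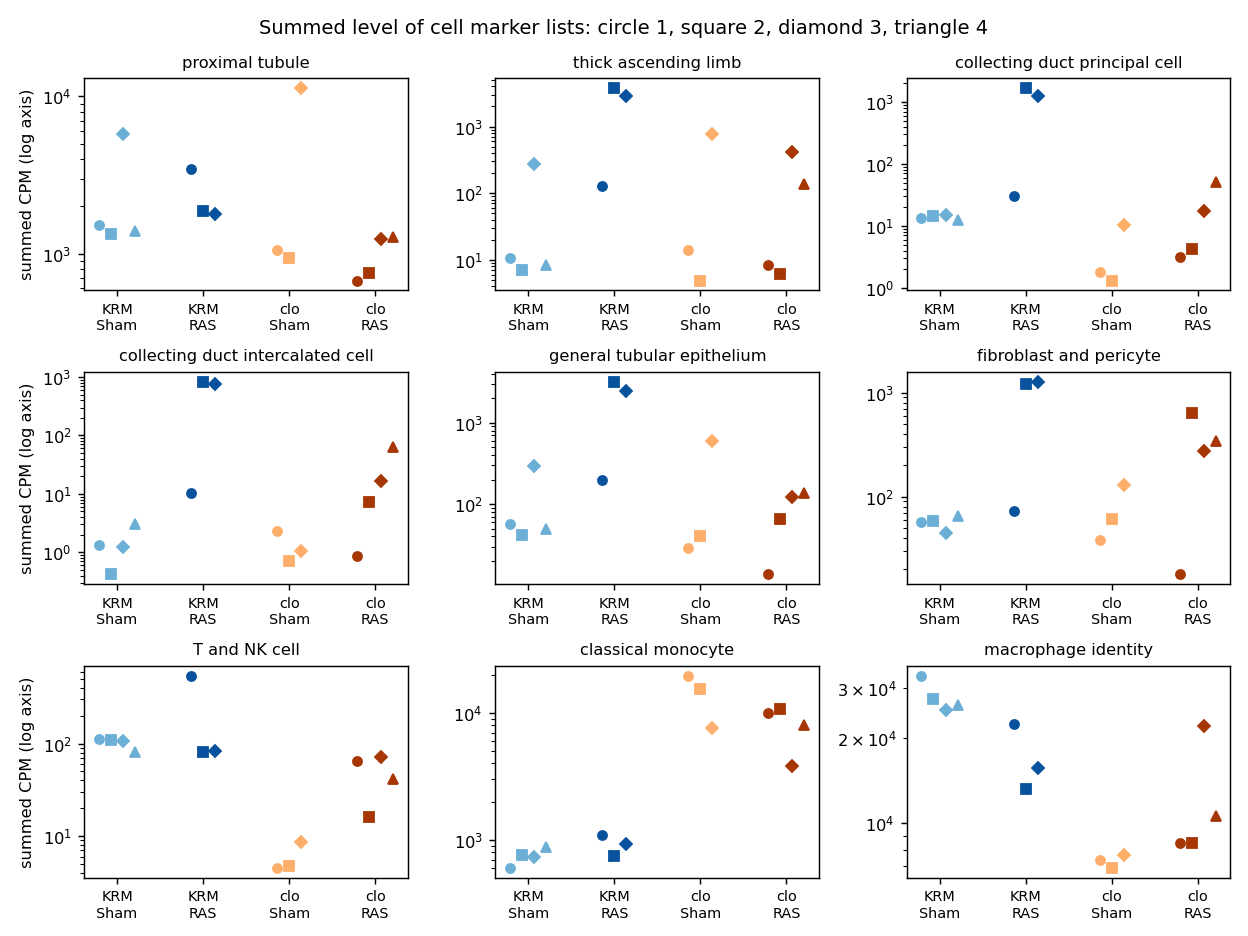
Summed CPM (log axis) of 9 marker lists in each of the 14 libraries, coloured by group and shaped by library number. Distal nephron, epithelial and fibroblast sums lie highest in KRM RAS 2 and 3, the T and NK sum lies highest in KRM RAS 1, and the proximal tubule sum lies highest in CD11clo Sham 3.

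Over all genes, 34 passed an adjusted p of 0.05 in edgeR's quasi-likelihood test of the interaction. KRM rose more for 31 of them (0.223% of the genes tested) and CD11cloMϕ for 3 (0.0216%). All 31 belonged to the same class: they were lower in KRM than in CD11cloMϕ by more than 1 on the log2 scale in Sham, with an adjusted p under 0.05 for that gap, and the gap was smaller in RAS. All 3 others started higher in KRM. None of the 34 was among the 104 tested genes of the kidney cell lists. At the shares of all genes above, 0 called is near what all genes gave, for these lists and for every smaller list below. The kidney cell lists hold Scnn1b and Scnn1g but not Scnn1a, which was called, and Cd24a was kept in a list of tubule injury genes. Of the 31, Ncr1 alone was also near 0 (a mean under 1 CPM) in the other 3 groups, and it met the rule for the converging class although its gap changed sign: it was -4.50 (SE 1.25) in Sham and 4.44 (SE 0.98) in RAS. The Sham libraries enter both the Sham gap and the interaction, so the class of a gene describes where its groups lay and is no further evidence for its interaction.

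The change in KRM is a term of the interaction that chose these genes, so what follows describes them and is read against no background. All 31 were called in KRM RAS against KRM Sham, with each KRM RAS library above each KRM Sham library. Of all genes, 9.43% were called higher in that comparison, 1.89% were called lower, and 13.7% had all KRM RAS libraries above all KRM Sham libraries. Their median log2 change was 3.31 in KRM and -0.36 in CD11cloMϕ, next to 0.02 and 0.01 over all genes, and none was called in CD11cloMϕ (smallest adjusted p = 0.274). No gene at all was called in CD11clo RAS against CD11clo Sham with edgeR, where 1890 had an unadjusted p under 0.05, DESeq2 called 353 and limma 0. Without CD11clo RAS 1, edgeR called 214 genes there. The median difference between KRM and CD11cloMϕ over the 31 genes was -5.13 in Sham and -0.73 in RAS. In RAS, 14 of the 31 were still called lower in KRM (12.1% of all genes were), 7 were called higher (8.49%) and 10 were not called.

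**Figure D2:**
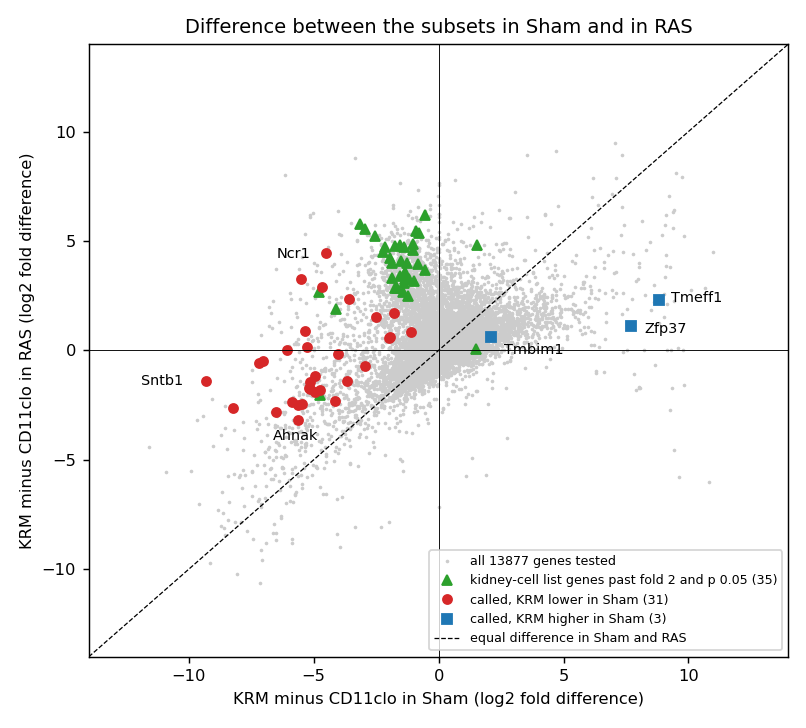
Difference between KRM and CD11cloMϕ (log2) in Sham on the horizontal axis and in RAS on the vertical axis, for the 13877 genes tested. The 31 genes called higher in the interaction (circles) lie left of 0 and above the dashed line of equal difference, with a median of -0.73 in RAS, while most of the 35 kidney cell genes past a fold of 2 with an unadjusted p under 0.05 (triangles) lie well above 0 in RAS.

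The number of calls rested on single libraries. Leaving out KRM RAS 1 raised it from 34 to 2357, and leaving out CD11clo RAS 1 to 181. Without KRM Sham 1, 2 or 3 no gene was called by edgeR, with 3109, 2725 and 3374 genes at an unadjusted p under 0.05, and without each of the others it lay between 1 and 30 (1 without KRM RAS 3 or CD11clo RAS 4, 2 without KRM RAS 2 or CD11clo Sham 2, 3 without CD11clo Sham 1, 4 without KRM Sham 4). DESeq2 called 1419 (903 higher and 516 lower), and limma called 1459 from the deposited log2 values (581 higher and 878 lower). In those log2 values the column of KRM RAS 1 does not correspond to its counts. With the replicate number as a block, edgeR called 1 gene (block within treatment) or 2 (block across treatments), with Ikbke among these 2. At the edge of the threshold, Fabp5 lay just inside with an interaction of 2.26 (SE 0.42) and Rph3al just outside with 5.93 (SE 1.10), the first at an adjusted p of 0.0488 from edgeR.

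The 31 genes differed in which KRM RAS libraries carried their rise. The log2 rise of each over the KRM Sham mean (log2 CPM with a prior count of 2) was taken in KRM RAS 1, the library with little distal nephron RNA, and divided by the mean rise in KRM RAS 2 and 3. This share was at least 75% for 11 genes, from 50% to 75% for 10 and under 50% for the other 10. Of all 1309 genes called higher in KRM RAS, 17% were at 75% or more and 71.9% under 50%. The split was chosen after the values were seen and carries no test. KRM RAS 1 also held the most monocyte RNA of the KRM libraries, with Ly6c2 at 65.1 CPM, against 6.33 and 6.49 in KRM RAS 2 and 3 and 5.96 to 9.03 in KRM Sham, and a classical monocyte sum of 1095 CPM, against 745, 921 and 600.0 to 875. Its part in the shares was not tested.

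**Figure D3:**
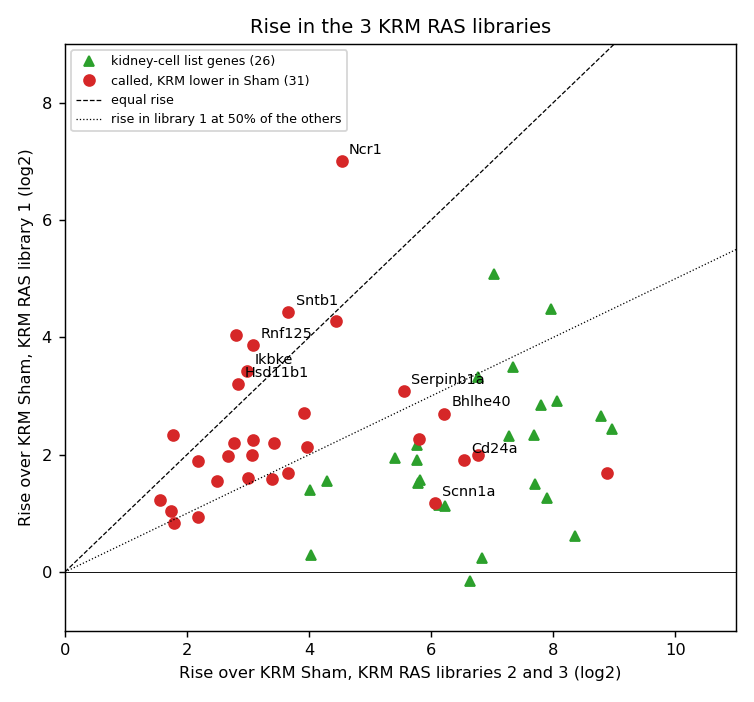
Log2 rise over the KRM Sham mean in KRM RAS 1 (vertical axis) against the mean rise in KRM RAS 2 and 3 (horizontal axis), for the 31 called genes (circles) and 26 kidney cell genes that rose by more than 1 in KRM (triangles). Ikbke, Hsd11b1, Rnf125, Sntb1 and Ncr1 lie above the line of equal rise, while Scnn1a and Cd24a lie among the kidney cell genes below the 50% line.

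The 11 genes with shares of at least 75% included Ikbke, with the smallest adjusted p of all genes, and Hsd11b1. Ikbke (mm10, chr1:131254343-131279606), which encodes IKKε, a kinase of innate immune signalling, was at 1.10, 0.945, 1.08 and 1.34 CPM in KRM Sham and 13.9, 10.8 and 9.53 in KRM RAS. In CD11cloMϕ it was at 68.8, 78.2 and 51.8 in Sham and 39, 70.7, 40.3 and 81.5 in RAS. The KRM groups did not overlap, and every KRM RAS library stayed under every CD11cloMϕ library. Its interaction was 3.54 (SE 0.40), with an adjusted p of 0.00912 from edgeR, and it passed in 11 of the 14 fits that left out 1 library. It was not called without KRM Sham 1, 2 or 3 (adjusted p = 0.0691, 0.0688 and 0.0639).

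Hsd11b1 (chr1:193221634-193264075) encodes the enzyme that regenerates active glucocorticoid inside cells. It was at 1.83, 2.00, 1.49 and 1.96 CPM in KRM Sham, 18.2, 12.9 and 15.3 in KRM RAS, 28.1, 23.4 and 36.2 in CD11clo Sham and 7.21, 24.9, 17.7 and 19 in CD11clo RAS. KRM RAS thus lay within the range of CD11clo RAS, and the difference between the subsets, -4.01 (SE 0.36) in Sham, was -0.15 (SE 0.33) in RAS. Its interaction was 3.86 (SE 0.48) (adjusted p = 0.0136, edgeR), called in 9 of 14 fits without 1 library and lost without KRM Sham 1, 2 or 3, KRM RAS 3 or CD11clo RAS 4 (adjusted p from 0.0506 to 0.0896). With KRM RAS 1 as the only KRM RAS library, 5 genes were called (0.0343% of those tested), and Ikbke and Hsd11b1 were the members of the 34 among them. The other 3 were Cd2, Acap1 and Ms4a4b, named after their values were seen. Cd2 and Ms4a4b are T cell genes.

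Hsd11b1 overlaps Lamb3 on the opposite strand. Lamb3, a laminin chain of epithelia, was at 0.311, 4.13 and 7.27 CPM in KRM RAS and 0.243, 0, 0.308 and 0 in KRM Sham, and thus low in KRM RAS 1, where Hsd11b1 was highest. The counting is not stated to use strand, so reads from overlapping genes on opposite strands cannot be told apart. The same holds for Tmbim1 with Pnkd, Slc25a35 with Rangrf and Tubb4b with Fam166a. In GENCODE vM21, Ikbke, Anxa1, Bhlhe40, Dusp5, Fam174b and Mctp2 also overlap other annotated genes on the opposite strand, and C3, Nck2 and Pde2a overlap others on their own strand.

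Of the other 9 genes of this kind, Rnf125, a ubiquitin ligase that restrains RIG-I signalling, was at 0.487, 0.42, 0.463 and 0.206 CPM in KRM Sham and 8.30, 4.22 and 5.31 in KRM RAS, with 18.1 to 62.1 in the CD11cloMϕ libraries. Ahnak, a giant scaffold protein at the cell membrane, was at 28 to 37.7 CPM in KRM Sham and 122 to 153 in KRM RAS, a change of 2.09 (SE 0.31), and stayed under the 559 to 1949 CPM of CD11cloMϕ. Both kept a gap in RAS that was called in edgeR (adjusted p = 0.0007 and 0.000136). Lgals1 (galectin-1) rose by 1.45 (SE 0.27), Fabp5, a fatty acid carrier, by 2.63 (SE 0.31) and Gypc, a membrane skeleton glycoprotein, by 2.23 (SE 0.39) on the log2 scale. Reads of Fabp5, Gstm1, Tubb4b and Cd24a may be shared with near-identical copies, and their levels are uncertain to that extent.

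For 4 of these genes KRM Sham was at or near 0. Sntb1, a syntrophin, had 0 counts over the 4 KRM Sham libraries and 90 over KRM RAS, which is at least 45.7-fold higher against a floor of 3 counts over the group. Emid1 had 2 counts in KRM Sham and 148 in KRM RAS, a ratio of 112.7 (95% exact interval 30.7 to 939, counting error only). Mctp2, a calcium-binding membrane protein, had 1 count and 59, a ratio of 89.9 (15.5 to 3609). These 3 genes were present in CD11cloMϕ at 2.17 to 11.8, 2.63 to 10.6 and 4.80 to 16.6 CPM.

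Ncr1 stood apart from the rest. It encodes the NK cell receptor NKp46, was in the T and NK cell list, and was not at a high level in CD11cloMϕ: it was at 0, 1.31 and 0.843 CPM in CD11clo Sham and 0.636, 0.239, 0.571 and 0.756 in CD11clo RAS. In KRM it went from 1 count over the 4 Sham libraries to 27.2, 5.05 and 4.42 CPM in RAS, with the highest value in KRM RAS 1, where Cd3e, a T cell receptor chain, was at 40.9 CPM against 0.315 to 0.928 in KRM Sham. Of the 12 T and NK cell genes, 11 were called higher in KRM RAS, where 9.43% of all genes were. The part of these cells in the rise of Ncr1 was not tested.

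Promoters of the called genes were searched for 4 motifs on both strands: the PU.1 motif GAGGAAGT, the AP-1 motif TGANTCA, an NF-kB motif and an HNF1 motif, of which PU.1 is the macrophage lineage factor and HNF1 a factor of kidney tubules. RefSeq windows of 300 bases around the transcript start were at hand for 19 of the 31 genes (26 windows). PU.1 was matched in 2 windows (7.69%, against 3.3% of the 12203 windows of all genes tested), AP-1 in 1 (3.85%, against 5.35%), NF-kB in 1 (3.85%, against 1.73%) and HNF1 in 0 (0.107% of all windows, and 0 of 83 windows of kidney cell genes). The stretches around these matches are shown 5′ to 3′ along the gene, with the matched letters in capitals. Positions are counted from the RefSeq transcript start of each window, which for Ikbke lies inside the gene span given above. The matches begin 6 bases before the start used for Ikbke (AP-1), 44 before that of Mctp2 (PU.1) and 193 (PU.1, minus strand) and 90 (NF-kB, minus strand) before that of Dusp5.
Ikbke, RefSeq GRCm38.p6, chr1:131279518-131279614, minus strand: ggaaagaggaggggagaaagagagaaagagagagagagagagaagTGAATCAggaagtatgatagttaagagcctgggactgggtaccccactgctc
Mctp2, RefSeq GRCm38.p6, chr7:72306587-72306684, minus strand: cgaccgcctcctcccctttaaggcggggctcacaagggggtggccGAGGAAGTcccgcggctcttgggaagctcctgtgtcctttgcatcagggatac
Dusp5, RefSeq GRCm38.p6, chr19:53528907-53529109, plus strand: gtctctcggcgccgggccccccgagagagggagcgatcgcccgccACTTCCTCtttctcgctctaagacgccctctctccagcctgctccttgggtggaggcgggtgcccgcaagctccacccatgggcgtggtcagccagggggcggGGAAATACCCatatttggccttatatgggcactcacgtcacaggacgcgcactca
The matches overlap no other motif searched. A match is a string of letters and no measured binding.

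The 10 genes with shares from 50% to 75% have varied roles. Capg, which caps actin filaments, was at 10.2, 7.56, 7.86 and 10.6 CPM in KRM Sham, 43.7, 81.4 and 73.5 in KRM RAS, 469, 499 and 375 in CD11clo Sham and 427, 505, 178 and 373 in CD11clo RAS. S100a10, the partner of annexin A2, was at 9.56 to 11.7 CPM in KRM Sham and 50.2, 141 and 98.1 in KRM RAS. Anxa1, a glucocorticoid-regulated annexin that limits inflammation, was at 12.8 to 15.7 CPM in KRM Sham and 43.8, 124 and 107 in KRM RAS. All 3 rose in each KRM RAS library and stayed under the CD11clo Sham libraries, which were at 211 to 402 CPM for S100a10 and 399 to 832 for Anxa1.

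Dusp5, a nuclear phosphatase of ERK, had an interaction of 3.47 (SE 0.48), with 42.2, 101 and 93.9 CPM in KRM RAS and 3.99 to 8.97 in KRM Sham. Serpinb1a, an inhibitor of neutrophil serine proteases, reached the level of CD11cloMϕ: 9.12, 63.5 and 41.3 CPM in KRM RAS against 0.412 to 1.95 in KRM Sham and 14.1 to 68.5 in CD11clo RAS. Its difference between the subsets went from -6.06 (SE 0.76) in Sham to 0.04 (SE 0.62) in RAS. Cfp (properdin), the positive regulator of the alternative complement pathway, was at 23.7 to 28.2 CPM in KRM Sham and 54.5, 86.7 and 90.3 in KRM RAS, with the smallest interaction of the 31 at 1.85 (SE 0.32). The phosphodiesterase Pde2a, the adaptor Nck2, the mitochondrial carrier Slc25a35 and Fam102a had interactions of 2.97, 4.03, 3.50 and 2.55.

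The 10 genes with shares under 50% rose mostly where distal nephron RNA was high. Scnn1a, the alpha subunit of the epithelial sodium channel, was at 1.10, 1.05, 2.16 and 0.516 CPM in KRM Sham, 2.70, 91.7 and 80.1 in KRM RAS, 16.7, 13.7 and 15.1 in CD11clo Sham and 10.2, 14.1, 7.31 and 14.4 in CD11clo RAS. In KRM RAS 2 and 3 it was thus above every CD11cloMϕ library, and the gap turned from -3.58 (SE 0.81) in Sham to 2.34 (SE 0.74) in RAS. Cd24a, a surface glycoprotein of immature blood cells and of injured tubules, was at 3.41, 3.47, 5.96 and 3.09 CPM in KRM Sham and 14.9, 443 and 321 in KRM RAS, with 139 to 724 in CD11cloMϕ. For both genes KRM RAS 1 lay above KRM Sham but far below KRM RAS 2 and 3. Fam174b and Tesc showed the same order, with 1.66, 60.3 and 42.1 and 2.38, 38.7 and 22.9 CPM in KRM RAS.

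C3, the central complement component, was at 16.7, 24.8, 27.3 and 25.5 CPM in KRM Sham, 70.1, 233 and 261 in KRM RAS, 922, 907 and 674 in CD11clo Sham and 509, 879, 397 and 808 in CD11clo RAS. Bhlhe40, a transcription factor of macrophage and T cell activation, was at 4.38, 7.98, 6.12 and 7.94 CPM in KRM Sham and 42.9, 545 and 445 in KRM RAS, with 147 to 472 in CD11cloMϕ. Nupr1, a stress-induced chromatin protein, was at 2.47 to 4.62 CPM in KRM Sham and 11.3, 45.1 and 44.5 in KRM RAS. Gstm1, a glutathione transferase, and Tubb4b, a tubulin, started at 35.7 to 47.5 and 31.7 to 43.4 CPM in KRM Sham, closer to CD11cloMϕ than the others, with Sham gaps of -1.93 and -1.10. In these 5 genes too KRM RAS 1 was the lowest of the 3. The part of tubule RNA in the rise of these 10 genes was not tested.

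**Figure D4:**
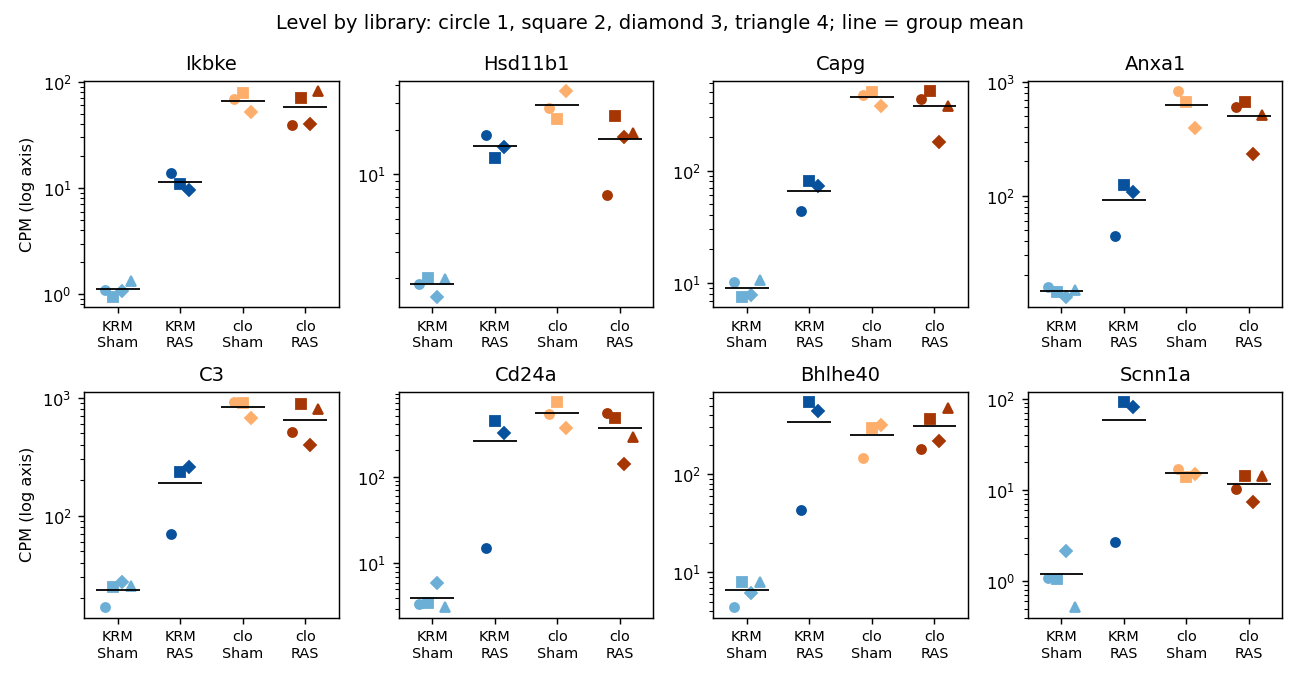
CPM (log axis) of 8 genes called in the interaction, by library, with a line at each group mean. KRM Sham lies lowest in all 8 panels. The 3 KRM RAS libraries lie close together for Ikbke and Hsd11b1, while for Bhlhe40, Cd24a and Scnn1a KRM RAS 1 (circle) lies far below the other 2.

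The 3 genes with a higher response in CD11cloMϕ started higher in KRM. Tmbim1, a lysosomal membrane protein, was at 419.8, 357, 331 and 349 CPM in KRM Sham, 221, 147 and 171 in KRM RAS, 88.8, 86.7 and 77 in CD11clo Sham and 89.6, 105, 155 and 117 in CD11clo RAS. Its fall in KRM was called (-1.02 (SE 0.19), adjusted p = 0.0109 from edgeR) and its change in CD11cloMϕ, 0.47 (SE 0.19), was not. The interaction was -1.49 (SE 0.27).

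In the other 2 the counts were at 0 in CD11clo Sham. Zfp37, a zinc finger protein, and Tmeff1, a membrane protein with follistatin domains, had 0 counts over the 3 CD11clo Sham libraries. Over CD11clo RAS they had 50 and 37 counts, at least 13.1-fold and 9.73-fold higher against 3 counts over the group. In CD11clo RAS Zfp37 was at 0.954, 1.43, 2.17 and 1.26 CPM and Tmeff1 at 0.848, 0.359, 2.29 and 0.756, in both cases highest in CD11clo RAS 3, the library with the most Cadm1. Over the 7 KRM libraries Zfp37 was at 1.86 to 3.89 CPM and Tmeff1 at 5.01 to 5.96, neither called between KRM RAS and KRM Sham. The fits without the CD11clo libraries numbered 3, an alternative chosen after the data were seen, called 29 genes higher (0.199%) and 2 lower (0.0137%). Of the 34 genes 16 were among them, all higher, and thus none of these 3.

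Genes of other kidney cells were followed with 9 lists of 114 genes for the nephron segments, epithelium, podocytes, endothelium and fibroblasts. Of these, 104 were tested and 0 were called in the interaction by edgeR, where 0.223% of all genes were called higher and 0.0216% lower. Among the 104, 35 had an unadjusted p under 0.05, as 23.7% of all genes did, and DESeq2 called 16, as it did 10.2% of all genes (15 of the 104 had no adjusted p in it). The medians were far from 0 for the segments: 5.65 for 9 thick ascending limb genes, 5.86 for 8 intercalated cell genes and 5.74 for 14 genes of tubular epithelium. Without the CD11clo libraries numbered 3 these medians were 2.50, 5.49 and 3.49. With KRM RAS 1 as the only KRM RAS library they were 1.70, -1.91 and 1.85. Counts of several duct genes lay almost entirely in KRM RAS. Insrr, a receptor of intercalated cells, had 1067 counts over KRM RAS, 16 over CD11clo RAS and 0 over both Sham groups, and Scnn1g, a subunit of the epithelial sodium channel, had 2415, 13 and 0. Genes whose counts lie mainly in 1 group pass the filter on low counts through that group and had to differ, so the medians and counts of these lists are descriptions. For the thick ascending limb, distal convoluted tubule, collecting duct and epithelial sums KRM RAS 1 lay far under KRM RAS 2 and 3, and the SEs of such genes were large, while the proximal tubule and podocyte sums were highest in KRM RAS 1 of these 3. Umod, the major protein of the thick ascending limb, was at 57.7, 2059 and 1557 CPM in KRM RAS and 4.38, 2.84, 116 and 2.37 in KRM Sham, with an interaction of 6.13 (SE 2.78).

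At a fold above 2 and an unadjusted p under 0.05, the rule closest to that of the study, 1548 genes had a higher response in KRM (11.2%) and 725 a lower one (5.22%), and 35 kidney cell genes were among these 2273. By class, 528 genes converged from below, 138 were near 0 in the other groups and 882 were neither. The kidney cell genes numbered 3, 3 and 28 in these classes, and 1 converged from above. Krt18, a keratin of simple epithelia, was at 2.80, 252 and 170.4 CPM in KRM RAS and 0.103 to 4.40 in all other libraries, with an interaction of 8.50 (SE 1.70) (adjusted p = 0.0549, edgeR). Cdh1 (E-cadherin) had an interaction of 5.86 (SE 1.5), Slc12a3, the cotransporter of the distal convoluted tubule, 7.79 (SE 2.01) and Aqp3, a water channel of the collecting duct, 6.70 (SE 2.29). Krt19, near 0 in the other groups, had 8.93 (SE 2.09).

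The 3 kidney cell genes that would pass as converging were of vessels and stroma. Acta2 (smooth muscle actin) was at 0, 0.21, 0.411 and 0.309 CPM in KRM Sham, 0.415, 144 and 120.4 in KRM RAS and 4.77 to 22.6 in CD11cloMϕ. Pdgfrb, the receptor of pericytes and fibroblasts, was at 0.207, 35.5 and 43.2 in KRM RAS and 0.965 to 9.48 in CD11cloMϕ. For both, KRM RAS 1 lay within or next to the range of KRM Sham. Flt1 (VEGF receptor 1) was at 2.38, 15.6 and 15.9 CPM in KRM RAS, 0.609 to 0.928 in KRM Sham and 10.7 to 83.3 in CD11cloMϕ.

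Under this rule the converging genes and the kidney cell genes overlapped in the share of their rise found in KRM RAS 1. Over the 528 converging genes the median share was 41.5%, with 303 under 50% and 155 at 75% or more. Over the 26 kidney cell genes that passed this rule and rose by more than 1 (log2) in KRM, it was 30.4%, with 24 under 50% and 0 at 75% or more. Without KRM RAS 1, 1205 genes were called higher in the interaction (8.23% of 14638 tested) and 1152 lower (7.87%), among them 23 kidney cell genes, 21 higher and 2 lower. Of the 1205, 424 converged from below, 3 of them kidney cell genes (Acta2, Pdgfrb and Flt1), 138 were near 0 elsewhere, with 4 kidney cell genes, and 643 were neither, with 14. Of the 31 genes, 29 were again in the class that converged from below.

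The proximal tubule list differed from the other segments. Its 22 genes had a median interaction of 2.81, with a median change of -0.03 in KRM and -3.04 in CD11cloMϕ. Kap, a protein of the male proximal tubule, was at 11.8, 22.9 and 1887 CPM in CD11clo Sham, 12.3, 37.8, 41.6 and 10.7 in CD11clo RAS, 114, 88.5, 375 and 129 in KRM Sham and 393, 208 and 158 in KRM RAS. Slc22a6, an organic anion transporter, was at 3.32, 6.57 and 287 in CD11clo Sham, 1.17, 4.66, 7.54 and 6.30 in CD11clo RAS, 14.7, 10.1, 78.3 and 19.4 in KRM Sham and 65.8, 20.7 and 19.6 in KRM RAS. CD11clo Sham 3 was the highest library for both genes, and KRM Sham 3 and KRM RAS 1 were high within their groups, with list sums of 5744 and 3443 CPM. Without the CD11clo libraries numbered 3, the median interaction of the list was -0.32.

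Of 20 macrophage identity genes, 15 were called higher in KRM than in CD11cloMϕ in Sham (14.4% of all genes were) and 1 in RAS (8.49%). Their median interaction was -1.20, from -0.69 in KRM and 0.76 in CD11cloMϕ, with none called by edgeR and 10 called lower by DESeq2 (10.2% of all genes were called by it). The fractalkine receptor Cx3cr1 was at 1125, 1151, 1063 and 1074 CPM in KRM Sham, 1020.2, 432 and 547 in KRM RAS, 248, 317 and 270.1 in CD11clo Sham and 495, 308, 915 and 486 in CD11clo RAS, with an interaction of -1.71 (SE 0.48) (adjusted p = 0.0889, edgeR). KRM RAS 2 and 3 were low and CD11clo RAS 3 was high. Without KRM RAS 1, 9 of the 20 identity genes were called lower in the interaction (7.87% of all genes were).

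The 13 MHC class II presentation genes had a median interaction of -1.96, -0.56 in KRM and 1.42 in CD11cloMϕ. In Sham 11 were called higher in KRM (14.4% of all genes) and in RAS 1 (8.49%), and none was called in the interaction by edgeR. DESeq2, and edgeR without KRM RAS 1, each called 9 lower, where DESeq2 called 10.2% of all genes in either direction and edgeR in that fit 7.87% lower. H2-DMb1, a subunit of the peptide exchange factor, was at 1694, 1240.5, 1046 and 1222 CPM in KRM Sham, 1127, 740.1 and 854 in KRM RAS, 267, 257 and 261 in CD11clo Sham and 433, 446, 1368 and 753 in CD11clo RAS. The costimulator Cd86 had an interaction of -1.96 (SE 0.47). Without the CD11clo libraries numbered 3 the median of the list was -1.53.

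On the other side stood genes of CD11cloMϕ. All 11 classical monocyte genes were called lower in KRM in Sham (18% of all genes were) and 10 in RAS (12.1%), with a median interaction of 1.33 and none called by edgeR (4 called higher by DESeq2, which called 10.2% of all genes in either direction). Without KRM RAS 1, the KRM library with the most monocyte RNA, the median interaction was 0.36 and the median change in KRM -0.06, against 1.05 with it. All but 1 of 14 genes of serous cavity type macrophages were called lower in KRM in Sham (18% of all genes) and 9 in RAS (12.1%), with a median interaction of 2.64, and 4 were called higher in KRM RAS than in KRM Sham (9.43%). This median was 1.62 without KRM RAS 1 and 1.52 without the CD11clo libraries numbered 3. Fcna, a ficolin, was at 0.609 to 1.65 CPM in KRM Sham, 4.56, 4.50 and 2.85 in KRM RAS and 130.2 to 721 in CD11cloMϕ, with an interaction of 2.68 (SE 0.80). Flt3, a receptor of dendritic cell precursors, fell in KRM, with 29.5 to 40.8 CPM in KRM Sham and 10.8, 4.77 and 3.15 in KRM RAS (interaction -2.62 (SE 0.51), adjusted p = 0.0529 from edgeR).

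**Figure D5:**
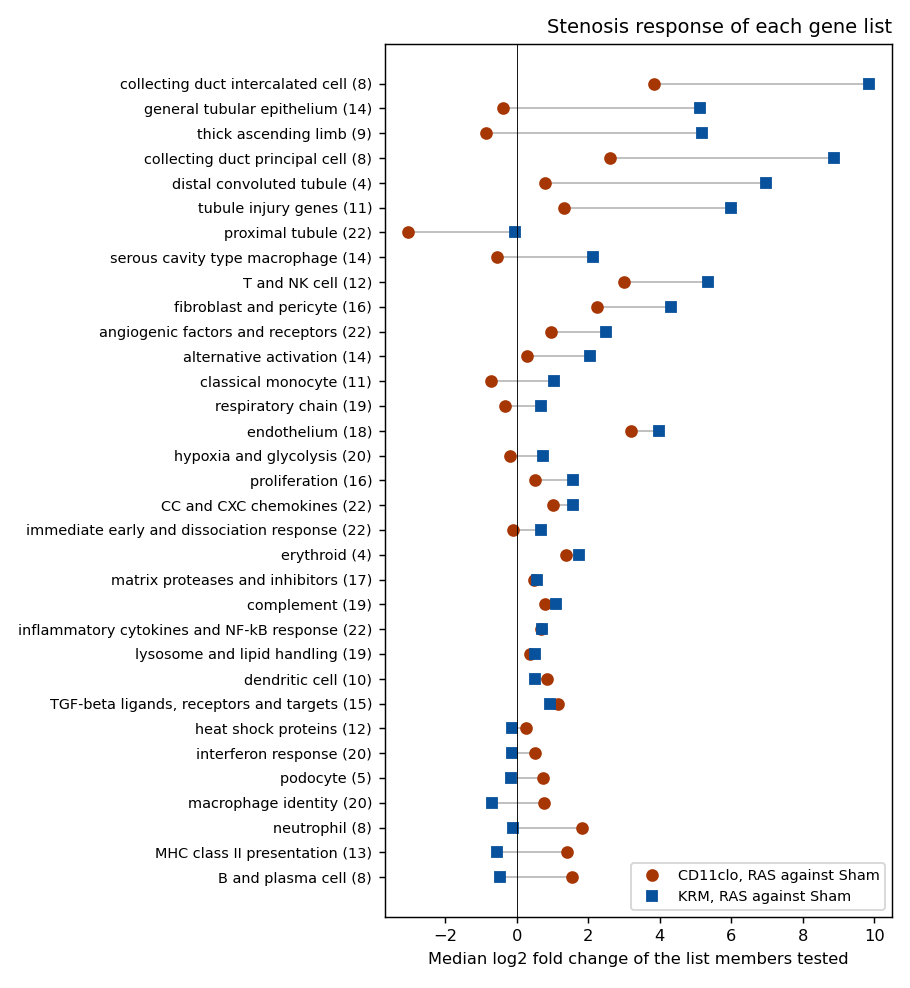
Median log2 change from Sham to RAS over the tested members of each gene list (number in brackets), in CD11cloMϕ (circles) and KRM (squares), sorted by the median interaction. The distal nephron, collecting duct, epithelial and tubule injury lists lie far to the right in KRM, the proximal tubule list lies near 0 in KRM, and the macrophage identity and MHC class II lists lie left of 0 in KRM and right of 0 in CD11cloMϕ.

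Among lists of functions, 4 of the 31 genes were members: C3 and Cfp of 19 complement genes, Cd24a of 11 tubule injury genes and Fabp5 of 19 lysosome and lipid genes. Of all genes, 0.223% were called higher in the interaction, and the lists were chosen with earlier results of these data known. The complement list as a whole had a median interaction of -0.21, with 7 of its 19 called higher in KRM RAS (9.43% of all genes were). In the interaction DESeq2 called 4 of them higher and 4 lower (10.2% of all genes in either direction). Without KRM RAS 1, edgeR called 5 higher and 1 lower (8.23% and 7.87%). The tubule injury list had 3.84, with 4.70 without KRM RAS 1 and 0.63 with KRM RAS 1 as the only KRM RAS library. DESeq2 called 4 of its genes higher and 1 lower. Clu (clusterin), the member of this list with the smallest p after Cd24a, was at 29, 2519 and 1870.0 CPM in KRM RAS and 0 to 47.9 elsewhere.

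For 19 respiratory chain genes the median was 1.07 in the interaction, 0.67 in KRM and -0.32 in CD11cloMϕ, with 10 called higher in KRM RAS (9.43% of all genes were) and 14 called lower in KRM Sham than in CD11clo Sham (18%). Atp5o, a subunit of ATP synthase, was at 62.6, 48.1, 69.6 and 50.1 CPM in KRM Sham and 69.1, 148 and 112 in KRM RAS (interaction 1.34 (SE 0.30), adjusted p = 0.067, edgeR). KRM RAS 1 lay inside the range of KRM Sham. Without it all 19 were called higher in the interaction (8.23% of all genes were), and with it as the only KRM RAS library the median was 0.46.

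Lists of 20 hypoxia and glycolysis genes and 22 immediate early genes had medians of 0.76 and 0.50, with none called by edgeR. At an unadjusted p under 0.05 there were 12 and 6 (23.7% of all genes). DESeq2 called 7 higher and 1 lower of the first and 6 higher of the second (10.2% of all genes in either direction), and edgeR without KRM RAS 1 called 7 higher and 1 lower and 7 higher (8.23% of all genes were higher and 7.87% lower). Hk1 (hexokinase 1) was at 43.8 to 48.3 CPM in KRM Sham, 63.4, 193 and 165 in KRM RAS and 88.2 to 136 in CD11cloMϕ. Nr4a1, an immediate early nuclear receptor, was at 98.2 to 133 CPM in KRM Sham, 190.1, 812 and 822 in KRM RAS and 1036 to 2229 in CD11cloMϕ. Both had an adjusted p of 0.067 from edgeR for the interaction.

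For the other lists, the median interaction was 0.64 for 22 chemokines, -0.27 for 22 inflammatory genes, -0.69 for 20 interferon response genes, -0.37 for 15 TGF-beta genes, 0.16 for 17 matrix proteases and inhibitors, -0.42 for 12 heat shock genes and 0.69 for 16 proliferation genes, with 0 called in each by edgeR. Over all genes edgeR called 0.223% higher and 0.0216% lower, so 0 is near that share for lists of this size. At an unadjusted p under 0.05 these 7 lists had 7, 6, 6, 7, 5, 2 and 5 genes (23.7% of all genes), and DESeq2 called 3, 3, 0, 7, 3, 2 and 1 (10.2% of all genes). Without KRM RAS 1, edgeR called 3 chemokines higher, 4 inflammatory genes higher and 1 lower, 7 interferon response genes lower, and 3 TGF-beta genes higher and 4 lower, where 8.23% of all genes were called higher and 7.87% lower. With KRM RAS 1 as the only KRM RAS library, the median of the chemokines was -0.10. The median interaction was 1.73 for 14 genes of alternative activation and 1.75 for 22 angiogenic factors and receptors and -0.35 for the lysosome and lipid list. Of lists for other blood cells, 8 B cell genes had -2.07, 8 neutrophil genes -1.95, 10 dendritic cell genes -0.35 and 4 erythroid genes 0.26, and 5 podocyte, 18 endothelial, 16 fibroblast and 4 distal convoluted tubule genes had -0.90, 0.87, 1.85 and 5.10. The erythroid median was -0.45 and the neutrophil median -3.44 without KRM RAS 1. With KRM RAS 1 as the only KRM RAS library, the angiogenic, endothelial, fibroblast and distal convoluted tubule medians were -0.91, -4.86, -1.88 and 0.39. The T and NK list had 2.23, with 0.06 without the CD11clo libraries numbered 3 and 0.38 without KRM RAS 1. The median interaction over all genes was 0.02.

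None of the 30 tested genes that the study names for its stenosis response was called in the interaction by edgeR, with 15 at an unadjusted p under 0.05, as 23.7% of all genes were. DESeq2 called 9 higher and 1 lower (10.2% of all genes were called by it), and limma called 7 higher and 2 lower from the log2 table (10.4%), in which the column of KRM RAS 1 does not correspond to its counts. Without KRM RAS 1, edgeR called 11 higher and 2 lower (8.23% and 7.87%). The study chose these genes on these samples, so the counts are no independent evidence. Vegfa, the main endothelial growth factor, was at 2.31, 1.37, 9.41 and 2.78 CPM in KRM Sham, 11.9, 88.3 and 88 in KRM RAS, 109, 88.1 and 104 in CD11clo Sham and 60.1, 236, 122 and 327 in CD11clo RAS, with an interaction of 3.01 (SE 1.01) (adjusted p = 0.115, edgeR). Its rise in KRM was called (3.90 (SE 0.77)), and it too started lower than in CD11cloMϕ. The monocyte attractant Ccl2 had 2.23 (SE 0.71), with 58.5, 240.4 and 285 CPM in KRM RAS and 22.2 to 49.6 in KRM Sham.

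Ccl8, another ligand of monocyte receptors, rose in KRM, with 2.06 to 4.50 CPM in KRM Sham and 109, 149 and 158 in KRM RAS, KRM RAS 1 near the other 2, and was at 4.93, 2.63 and 6.53 in CD11clo Sham and 45.4, 29.3, 245 and 21.9 in CD11clo RAS. Its interaction was 1.31 (SE 1.00) (adjusted p = 0.44). Spp1 (osteopontin), which tubules also make, was at 158, 7899.9 and 5614 CPM in KRM RAS, 17.2, 14, 114 and 20.1 in KRM Sham and 16.5 to 483 in CD11cloMϕ, with an interaction of 4.46 (SE 1.62). Lcn2, a lipocalin of neutrophils and injured tubules, had 7.72 (SE 1.72) and Il6 3.71 (SE 1.13).

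Vcam1, an adhesion molecule, had an interaction of -3.42 (SE 1.06). It was at 21.8, 8.48 and 5.27 CPM in CD11clo Sham and 27.8, 39, 340.3 and 86.9 in CD11clo RAS, and at 194 to 379.9 in KRM. Tgfb3 and Cxcl16, a growth factor and a chemokine, were likewise highest among the CD11cloMϕ libraries in CD11clo RAS 3, at 33.4 and 1013 CPM, with interactions of -7.56 (SE 1.93) and -3.05 (SE 0.90). All 3 missed the threshold (adjusted p = 0.102, 0.0807 and 0.0951, edgeR).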

How the data were processed

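The authors deposited estimated counts per gene, made with the OmicSoft aligner and Ensembl R83 gene models on mm10, from SMART-Seq v4 and Nextera XT libraries, and a second table that holds, by its values, quantile-normalized log2(TPM + 1). The column of KRM RAS 1 does not correspond between the tables (Spearman 0.688, the others 0.908 or more), so the log2 table served only as an alternative. Its log2 column matched best the counts of a library of another subset, CD11chi RAS 2 (0.766). KRM Sham 2 and 4 and KRM RAS 3 matched best another library of their own group. Which table holds the right profile of KRM RAS 1 is not known, and values that rest on this library share that doubt. Counts were rounded and the 3730 of 37620 lines that share a symbol were summed. The 14 libraries were fitted together with edgeR 4.0.16 in R 4.3.3 (TMM, filterByExpr at its defaults of 10 counts and 15 in total, quasi-likelihood F test, two-sided, Benjamini-Hochberg over 13877 genes, called at an adjusted p under 0.05), with all 5 contrasts from 1 fit. The fit was also run on simulated counts with changes set in KRM RAS only. Those counts had no Sham gap and no library that stood apart, so they do not bear on calls that rest on single libraries. SEs are the log2 fold change over the root of F. At these totals, counting error matters for genes under a few CPM, and amplified reads are not independent molecules, so counting intervals and floors are minima.

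Genes were named by rule: in each class the 8 with the largest interaction at an average log2 CPM of at least 3, called list members, the 2 to 4 members of a list with the smallest p, genes the study names, and genes at the threshold. The other called genes, Lamb3, Umod, Krt19, Insrr, Scnn1g and the marker genes of the subsets and of T cells were named after their values were seen. Some genes, 1 called gene among them, are not reported here. Members, lists and classes were chosen with earlier results of these data known. Alternatives were median-of-ratios scaling, total library size, 2 other filters, all 6 groups, the replicate block, symbol lines kept apart, limma 3.58.1 on the log2 table (pseudocount 1 or 0.1), DESeq2 1.42.0, other class limits and each library left out. Positions are from GENCODE vM21. No pair of replicates was close enough to be 1 library deposited again. CD11chi macrophage libraries entered only the fit over 6 groups.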

Additional observations from a re-analysis of the deposited data

Results flagged for a closer look

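The stenosis response differed between KRM and CD11cloMϕ, by edgeR's test of the interaction itself, for 34 genes. The interaction log2 fold changes above 0 included Ncr1 (8.94), Sntb1 (7.92), Fam174b (7.54), Emid1 (6.58), Cd24a (6.56), Tesc (6.23), Serpinb1a (6.09), Scnn1a (5.92), Mctp2 (5.58) and Bhlhe40 (5.42). Further values were Nck2 (4.03), Hsd11b1 (3.86), S100a10 (3.77), Rnf125 (3.71), Nupr1 (3.67), Ikbke (3.54), Slc25a35 (3.50), Dusp5 (3.47), C3 (3.36), Capg (3.14) and Gypc (3.07). Lower values above 0 were Anxa1 (3.00), Pde2a (2.97), Fam102a (2.55), Gstm1 (2.53), Ahnak (2.42), Fabp5 (2.26), Lgals1 (2.19), Tubb4b (1.96) and Cfp (1.85). Below 0 lay Zfp37 (-6.61), Tmeff1 (-6.49) and Tmbim1 (-1.49). Values against a group at 0 counts (Sntb1, Zfp37 and Tmeff1) depend on the prior count.

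Groups of 4 libraries were also searched for a library apart from the other 3 (Dixon test at 95%), over 165 groups of 83 genes and marker sums, where chance gives about 8, and 19 were found. In 4 of the 19 the other 3 libraries were at 0, so any count above 0 set the library apart, which leaves 15 in 161 groups, where chance gives about 8. CD11clo RAS 3 was the highest for Ccl8 (245 CPM, others 21.9 to 45.4) and Tgfb3 (33.4 CPM, others 0.636 to 4.28). CD11clo RAS 4 was the highest for Aqp2 (21.2 CPM, others 0 to 0.343). KRM Sham 1 was the highest for Lgals1 (29.1 CPM, others 17.6 to 19.2). KRM Sham 2 was the highest for Krt18 (1.05 CPM, others 0.103 to 0.206). KRM Sham 3 was the highest for Cd24a (5.96 CPM, others 3.09 to 3.47), Mctp2 (0.0514 CPM, others 0), Ncr1 (0.0514 CPM, others 0), Slc12a3 (3.55 CPM, others 0 to 0.315), Aqp3 (4.32 CPM, others 0.309 to 0.63), Kap (375 CPM, others 88.5 to 129), Slc22a6 (78.3 CPM, others 10.1 to 19.4), Spp1 (114 CPM, others 14 to 20.1), Umod (116 CPM, others 2.37 to 4.38), Aqp2 (0.0514 CPM, others 0) and the proximal tubule sum (5744 CPM, others 1329 to 1510.2). KRM Sham 4 was the highest for Emid1 (0.206 CPM, others 0) and the lowest for Fabp5 (1.86 CPM, others 3.24 to 3.47) and the T and NK cell sum (80.2 CPM, others 107 to 112).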

How the results depend on the processing

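All 34 called genes kept the sign of their interaction in every alternative in which they could be computed, and no called value reversed. Which genes passed depended on the fit. The interaction called 34 genes, of which 31 converged from below, 5 were members of the lists and 34 were among the 120 genes the naming rule chose. Leaving out 1 library at a time gave 0 to 2357 called, 0 to 424 converging, 0 to 130 list members and 0 to 90 named genes. The calls then ranged from 300 to 4671 for KRM RAS against KRM Sham (1571 in full), from 0 to 214 for CD11clo RAS against CD11clo Sham (0 in full) and from 1122 to 4260 for KRM RAS against CD11clo RAS (2861 in full). The highest counts came without KRM RAS 1, or without CD11clo RAS 1 for CD11cloMϕ, and the lowest for KRM RAS against KRM Sham without KRM RAS 2.

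Median-of-ratios scaling called 59 genes (47 converging), total library size 77 (58), no filter 74 (57) and the fit over 6 groups 58, with 1838 between the subsets in RAS. Total library size moved the median interaction of all genes from 0.02 to 0.21. At least 10 counts in every library gave 20 named genes and 894 calls in KRM RAS against KRM Sham. Without the CD11clo libraries numbered 3 there were 1 list member and 17 named genes, 4511 calls between the subsets in RAS and 1 in CD11cloMϕ (Fam40b, named after its value was seen). Without KRM RAS 2 and 3 there were 5 calls, all 5 converging, 0 list members and 2 named genes, with 97 calls in KRM and 423 in RAS. This fit leaves 1 KRM RAS library, assumed to vary like the other groups. A fold above 2 with an unadjusted p put 528 genes in the converging class.

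DESeq2 called 1419 (903 higher and 516 lower), 394 converging, 108 list members and 81 named, with 2861 calls in KRM and 353 in CD11cloMϕ. limma on the log2 table called 1459 (581 higher, 878 lower), 166, 91 and 62, with 3771 in KRM and 2706 between the subsets in Sham. With a pseudocount of 0.1 it called 1263, 199, 90 and 67, with 3609, 3 in CD11cloMϕ and 2676. Without KRM RAS 1 it called 3932, 294, 177 and 92, with 5761, 3 in CD11cloMϕ and 4790 between the subsets in RAS. The cause of these differences was not tested.

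The replicate block within treatment left 1 call (Pdk4), 0 converging, 0 list members and 0 named genes, and the block across treatments 2 (Emp2 and Ikbke), 1, 0 and 1. Pdk4 and Emp2 were named after their values were seen. Libraries with the same number correlated in their deviations by 0.21 to 0.57 in Sham and 0.08 to 0.53 in RAS, and KRM RAS 2 and 3 correlated better with CD11clo RAS 4 (0.38 and 0.39) than with their own numbers. Each CD11clo library numbered 1 to 3 correlated best, within its treatment, with the KRM library of its own number. Not every same-numbered pair was above 0.1 (KRM RAS 2 with CD11clo RAS 2 at 0.08), so the main fit did not take the numbers as pairs. Whether they are pairs was not settled.

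In all, of the values for single genes, classes and list medians, 3482 stayed on their side of the threshold or within the spread, 477 lost and 284 gained a call, 126 moved beyond the spread and 0 reversed. Depth limits genes under a few CPM: Sntb1, Emid1, Mctp2 and Ncr1 had 0 to 2 counts in KRM Sham.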

Other observations

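Ccna2, a cyclin of DNA replication, was at 3.77, 2.84, 2.31 and 1.96 CPM in KRM Sham, 12.3, 7.34 and 11.1 in KRM RAS, 3.00, 2.39 and 3.48 in CD11clo Sham and 3.07, 1.55, 1.94 and 2.90 in CD11clo RAS. Its interaction was 2.23 (SE 0.52) (adjusted p = 0.0733, edgeR), and the 3 KRM RAS libraries lay above all others, KRM RAS 1 highest. Of 16 proliferation genes, 6 were called higher in KRM RAS against KRM Sham, as 9.43% of all genes were.

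Ctsd, a lysosomal protease, rose in KRM. It was at 326 to 364 CPM in KRM Sham, 792, 1349.7 and 1313 in KRM RAS and 1066 to 1167 in CD11clo Sham, with an interaction of 1.49 (SE 0.33) that missed the threshold (adjusted p = 0.067). The cytokine Osm was at 58, 97.8 and 139 CPM in KRM RAS, 21 to 27.5 in KRM Sham and 292 to 688 in CD11cloMϕ, with an interaction of 1.71 (SE 0.42). Plaur, the urokinase receptor, was at 18.1, 54.2 and 51.6 CPM in KRM RAS, 4.74 to 7.14 in KRM Sham and 316 to 808 in CD11cloMϕ. The metalloprotease Adam8 was at 16.7, 16.4 and 11.7, 2.78 to 4.73 and 126 to 508 CPM in the same order. In Ctsd, Osm, Plaur and Adam8 each KRM RAS library lay above each KRM Sham library.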
